A study of Rattus norvegicus with 20 samples.

Results

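The subject here is the constitutive proteasome of rat liver, read as the transcripts of its subunits and direct partners after tricresyl phosphate (TCP), an organophosphate ester. The members were all genes in the array annotation whose symbol is Psma, Psmb, Psmc, Psmd or Psme followed by a number, apart from Psmb8, Psmb9 and Psmb10, whose products form the immunoproteasome. Of 38 such genes, 36 had a probe set of their own and were measured, among 14217 genes in all. Psmb6 and Psme3 were annotated only in probe sets that also carry other genes (1 and 4 probe sets) and have no value here. The measured members were 13 genes of the 20S core particle, 17 of the 19S regulatory particle, 3 chaperones that assemble the 19S base and 3 activators.

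Livers came from 20 male Harlan Sprague-Dawley rats, each on an array of its own. TCP was given in corn oil by oral gavage once a day for 4 days at 62.3, 124.5, 248.6, 497.3 or 994.6 mg/kg (3 rats per dose), and the control group received corn oil alone (5 rats). The liver was taken the day after the last dose, and the RNA came from pieces of the left lobe, so all cell types of the tissue are mixed. Values are log2 expression as deposited, and a difference of 1 on this scale is a doubling. No groups other than dose were labelled, and no age of the rats was used here.

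The proteasome degrades proteins tagged with ubiquitin. Its core particle is a barrel of stacked rings, with outer alpha rings that gate the entry and inner beta rings that hold the proteolytic sites. The regulatory particle caps the barrel: its base has a ring of ATPases that unfold the substrate and its lid removes the ubiquitin chain. Liver cells rely on it to clear damaged and short-lived proteins, and in mammalian cells NRF1 (Nfe2l1) raises transcription of subunit genes together when proteasome activity is too low.

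Promoter sequence was available for 32 of the 36 measured members, from RefSeq on build GRCr8, as 250 bases before to 50 bases after the annotated start. Positions count from that start site, with negative numbers upstream. These 4 are shown because Psma1, Psmb3 and Psmd8 had the largest called change of the alpha ring, beta ring and lid, and Psmb2 was the called member whose window held an antioxidant response element core. Capitals mark matches of CCAAT (the NF-Y box) and of TGACNNNGC (the core of the antioxidant response element, which NRF1 and NRF2 can bind), searched on both strands, so that ATTGG is CCAAT read from the other strand.
Psma1, chr1:177887808-177888107, minus strand: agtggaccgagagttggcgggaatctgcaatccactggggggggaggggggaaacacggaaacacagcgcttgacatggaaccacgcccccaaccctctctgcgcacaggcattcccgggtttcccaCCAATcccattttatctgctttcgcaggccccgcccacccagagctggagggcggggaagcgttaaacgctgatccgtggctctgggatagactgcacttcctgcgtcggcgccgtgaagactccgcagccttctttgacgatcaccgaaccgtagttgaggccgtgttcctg
Psmb3, chr10:83193537-83193836, plus strand: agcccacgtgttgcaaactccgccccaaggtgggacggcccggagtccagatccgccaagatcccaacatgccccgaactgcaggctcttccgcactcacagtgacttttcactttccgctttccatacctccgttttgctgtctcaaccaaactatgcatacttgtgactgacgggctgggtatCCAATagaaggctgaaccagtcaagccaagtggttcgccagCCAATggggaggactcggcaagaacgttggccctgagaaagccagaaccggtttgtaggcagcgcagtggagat
Psmd8, chr1:93608640-93608939, minus strand: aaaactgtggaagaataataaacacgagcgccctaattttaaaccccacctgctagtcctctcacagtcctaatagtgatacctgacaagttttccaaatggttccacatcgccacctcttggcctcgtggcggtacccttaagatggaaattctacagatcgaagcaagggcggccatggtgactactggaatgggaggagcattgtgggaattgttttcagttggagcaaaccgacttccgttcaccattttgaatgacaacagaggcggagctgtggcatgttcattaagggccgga
Psmb2, chr5:144254808-144255107, plus strand: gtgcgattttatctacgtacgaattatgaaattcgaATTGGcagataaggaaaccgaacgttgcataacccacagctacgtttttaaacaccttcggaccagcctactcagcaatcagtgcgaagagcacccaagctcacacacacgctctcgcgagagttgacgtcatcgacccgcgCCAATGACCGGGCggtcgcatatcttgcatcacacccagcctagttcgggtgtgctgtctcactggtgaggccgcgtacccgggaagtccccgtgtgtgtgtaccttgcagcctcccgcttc

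CCAAT lies at -123 in Psma1 and at -65 and -24 in Psmb3, while the Psmd8 window holds neither motif. In Psmb2 the CCAAT at -72 shares its last base with TGACCGGGC at -68, and an ATTGG lies at -214. CCAAT was found in 16 of the 32 windows (50%), against 37.3% of the windows of measured genes and 37.7% of all RefSeq windows of this length. It was in 9 of 12 core windows (75%) and in 5 of 14 regulatory particle windows (35.7%). TGACNNNGC was found in 7 of 32 windows (21.9%), against 14.4% of measured genes and 12.2% of all windows. It was in 1 of 12 windows of members called at 994.6 mg/kg and in 6 of 20 windows of members not called. These are counts of letters in a short window and were not tested.

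At 994.6 mg/kg the proteasome transcripts were mostly higher than in control. A gene was called when limma's Benjamini-Hochberg adjusted p over all 14217 genes was under 0.05. Of 36 members, 14 were called higher (38.9%) and 0 lower, against 2.5% of all genes called higher and 4.47% called in either direction. The calls fell on 8 of 13 core genes, 4 of 17 regulatory particle genes, 0 of 3 base chaperones and 2 of 3 activators. Changes were small: the median over the members was 0.26 on the log2 scale (1.2-fold), against -0.01 over all genes, and 34 of 36 members were above 0, against 48.4% of all genes. The 3 treated arrays all lay above the 5 control arrays in 22 of 36 members, against 6.91% of all genes. In bulk tissue, a change in RNA per cell and a change in the share of a cell type cannot be told apart.

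All of these calls were lost when 1 array was left out. Replicate 1 of 994.6 mg/kg stood apart from the other 19 arrays on the first principal component of all genes (37.1, against -14.1 to 9.14; 20.1% of the variance), and it was the highest of all 20 arrays in 25 of 36 members (69.4%), against 15.6% of all genes. Without it, limma called 0 of 36 members, and 18 had an unadjusted p under 0.05. Still, 33 members lay above 0, against 49.4% of all genes, and the member median was 0.18. That fit has 1 rat fewer at the dose, and the share of all genes it called is not given here. Replicates 2 and 3 of the dose both exceeded every control array in 23 of 36 members, against 9.78% of all genes. Leaving out control replicate 1, 2 or 5 left 8 calls each.

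**Figure D1:**
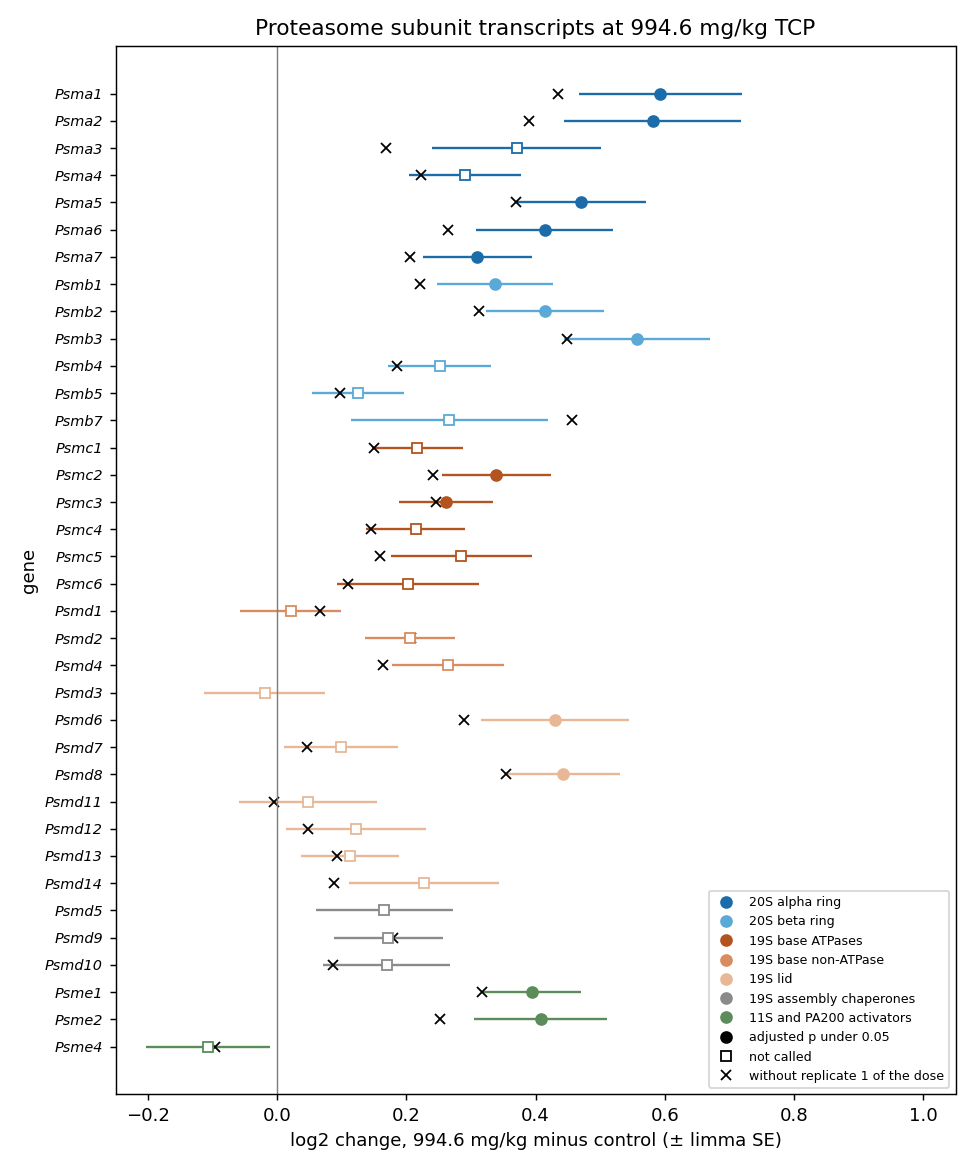
Log2 change of each of the 36 members at 994.6 mg/kg minus control (x axis), with limma's standard error as the bar and genes ordered by role down the page. Filled circles passed an adjusted p of 0.05, open squares did not, and crosses give the change without replicate 1 of the dose. The circles and squares of all but Psmd3 and Psme4 lie above 0, and so do the crosses of 33 members.

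In the alpha ring, 5 of 7 genes were called, with a median change of 0.41. That median was 0.265 without replicate 1 of the dose, when the beta ring median was 0.267. Psma1, an alpha ring subunit, measured 11.77, 11.25 and 11.33 in the 994.6 mg/kg livers, against 11.01, 10.81, 10.91, 10.79 and 10.77 in control livers. Its change was 0.59 ± 0.126 (limma SE, here and below; 1.51-fold, limma adjusted p = 0.0107). The groups did not overlap, and the 2 lower treated arrays were still at least 0.2 above the highest control.

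Psma2, also of the alpha ring, measured 11.48, 10.90 and 10.90 at 994.6 mg/kg, against 10.56, 10.54, 10.77, 10.32 and 10.36 in control (0.58 ± 0.137, limma adjusted p = 0.0202). Replicate 1 was well above the other treated arrays, which lay close to the highest control. Psma5 measured 11.66, 11.33 and 11.37 at 994.6 mg/kg, against 11.05, 10.88, 11.12, 10.92 and 10.93 in control (0.47 ± 0.0998, limma adjusted p = 0.0105), again with no overlap. Psma6 and Psma7 rose by 0.41 ± 0.106 and 0.31 ± 0.0844 (limma adjusted p = 0.0307 and 0.0429). Psma3 (0.37 ± 0.131) and Psma4 (0.29 ± 0.0865) missed the threshold, with limma adjusted p = 0.116 and 0.0608.

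In the beta ring, 3 of 6 measured genes were called, with a median change of 0.30, and those 3 encode subunits without a proteolytic site. Psmb3 measured 11.44, 11.07 and 11.16 at 994.6 mg/kg, against 10.70, 10.57, 10.83, 10.50 and 10.75 in control (0.56 ± 0.113, limma adjusted p = 0.00786). Psmb2 measured 12.03, 11.69 and 11.75 at 994.6 mg/kg, against 11.51, 11.30, 11.49, 11.32 and 11.43 in control (0.41 ± 0.0911, limma adjusted p = 0.0134). Psmb1 measured 12.54, 12.19 and 12.19 at 994.6 mg/kg, against 12.02, 11.86, 11.99, 12.06 and 11.94 in control (0.34 ± 0.0896, limma adjusted p = 0.0374). In each of these genes the treated arrays all lay above the controls, with replicate 1 the highest.

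The measured genes of the proteolytic sites did not pass at 994.6 mg/kg. Psmb5, which carries the chymotrypsin-like site, measured 12.17, 12.12 and 12.04 at 994.6 mg/kg, against 11.98, 11.96, 12.05, 12.00 and 11.94 in control. Its change was 0.12 ± 0.0714, with a 95% interval of -0.0246 to 0.275 (limma adjusted p = 0.375), and the groups overlapped. Psmb7, which carries the trypsin-like site, measured 9.80, 10.35 and 10.39 at 994.6 mg/kg, against 9.95, 9.64, 9.87, 10.04 and 10.06 in control (0.27 ± 0.153, limma adjusted p = 0.378). Here replicate 1 was the lowest of the dose and lay within the control range, unlike in most other members. Without that array the Psmb7 change was 0.46 (limma adjusted p = 0.189). Psmb4, a subunit without a proteolytic site, changed by 0.25 ± 0.0797 (limma adjusted p = 0.0771). Psmb6, which carries the caspase-like site, has no value here.

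The base of the regulatory particle had smaller changes. All 6 ATPase genes were above 0 (median 0.24, or 0.155 without replicate 1) and 2 were called. Psmc2 measured 12.19, 11.94 and 11.86 at 994.6 mg/kg, against 11.69, 11.64, 11.76, 11.69 and 11.51 in control (0.34 ± 0.0843, limma adjusted p = 0.0266). Psmc3 measured 10.87, 10.83 and 10.82 at 994.6 mg/kg, against 10.62, 10.60, 10.50, 10.66 and 10.50 in control (0.26 ± 0.073, limma adjusted p = 0.0468). In Psmc3 the 3 treated arrays lay within 0.1 of each other, so replicate 1 did not stand out, but its call was lost in all 8 fits that left out an array of these groups. Psmc1, Psmc4, Psmc5 and Psmc6 changed by 0.20 to 0.28 and were not called.

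None of the 3 base subunits outside the ATPase ring was called. Psmd4, a ubiquitin receptor, had the largest change of them and measured 10.32, 10.02 and 10.02 at 994.6 mg/kg, against 9.89, 9.73, 9.87, 10.01 and 9.78 in control (0.27 ± 0.0866, limma adjusted p = 0.0876). Its 2 lower treated arrays lay just above the highest control. The scaffold genes Psmd2 and Psmd1 changed by 0.21 ± 0.0699 and 0.02 ± 0.0787 (limma adjusted p = 0.0991 and 0.928).

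Of the 8 lid genes 2 were called and 1 lay below 0, with a median change of 0.12, or 0.07 without replicate 1. Psmd8 measured 11.67, 11.35 and 11.47 at 994.6 mg/kg, against 11.14, 10.98, 11.12, 10.93 and 11.11 in control (0.44 ± 0.0892, limma adjusted p = 0.0076). Psmd6 measured 10.94, 10.53 and 10.51 at 994.6 mg/kg, against 10.10, 10.42, 10.35, 10.07 and 10.20 in control (0.43 ± 0.115, limma adjusted p = 0.0385). Both lid genes had treated arrays that lay above all controls.

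Psmd3, a structural lid subunit, measured 9.90, 9.97 and 9.84 at 994.6 mg/kg, against 9.93, 9.81, 10.00, 10.02 and 9.84 in control. Its change of -0.02 ± 0.0933 had a 95% interval of -0.215 to 0.176 (limma adjusted p = 0.944), and the groups overlapped fully. The sign turned in 5 of the other fits, so no direction is given for it. Psmd14, the deubiquitinating enzyme of the lid, changed by 0.23 ± 0.116 (limma adjusted p = 0.304), and Psmd7, its partner, by 0.10 ± 0.0885 (limma adjusted p = 0.62). Psmd11, Psmd12 and Psmd13 changed by 0.05 to 0.12 and were not called.

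Several members had more than 1 probe set, and these did not always agree. The 36 members had 50 probe sets in all, 9 members had more than 1, and the brightest was used. Of the 14 others, 9 were above 0 and 1 was called: the second probe set of Psmd7 rose by 0.41 ± 0.102 (limma adjusted p over all probe sets = 0.037), against 0.10 ± 0.0885 for the one used. The dimmer probe sets of Psmd14 changed by 0.54 ± 0.166 and 0.38 ± 0.131 and were not called, and those of Psmd11 by 0.26 ± 0.14 and -0.17 ± 0.121. That of Psme1, at a mean log2 level of 6.37, changed by -0.00379 ± 0.108. The Psme1 probe set used, at a mean level of 12.17, changed by 0.394 ± 0.0761.

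The chaperones that assemble the base, Psmd5, Psmd9 and Psmd10, changed by 0.17 each and none was called. Psmd9 had the largest change and measured 9.47, 9.48 and 9.50 at 994.6 mg/kg, against 9.35, 9.21, 9.30, 9.24 and 9.45 in control (0.17 ± 0.0843, limma adjusted p = 0.283). Its treated arrays lay close together and just above the highest control.

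Among the activators, the 2 measured subunits of the 11S ring rose and the single-chain activator PA200 was not called. Psme1 measured 12.58, 12.33 and 12.36 at 994.6 mg/kg, against 11.94, 11.97, 12.07, 12.01 and 12.15 in control (0.39 ± 0.0759, limma adjusted p = 0.00564, the lowest of the members). Psme2 measured 11.39, 10.86 and 10.98 at 994.6 mg/kg, against 10.63, 10.54, 10.73, 10.62 and 10.80 in control (0.41 ± 0.103, limma adjusted p = 0.0286). Psme4, which encodes PA200, measured 10.50, 10.56 and 10.50 at 994.6 mg/kg, against 10.66, 10.61, 10.70, 10.52 and 10.65 in control. The Psme4 change was -0.11 ± 0.0956, with a 95% interval of -0.307 to 0.0933 (limma adjusted p = 0.619), and 1 treated array lay within the control range. The median over the 3 activators was 0.39, or 0.25 without replicate 1.

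**Figure D2:**
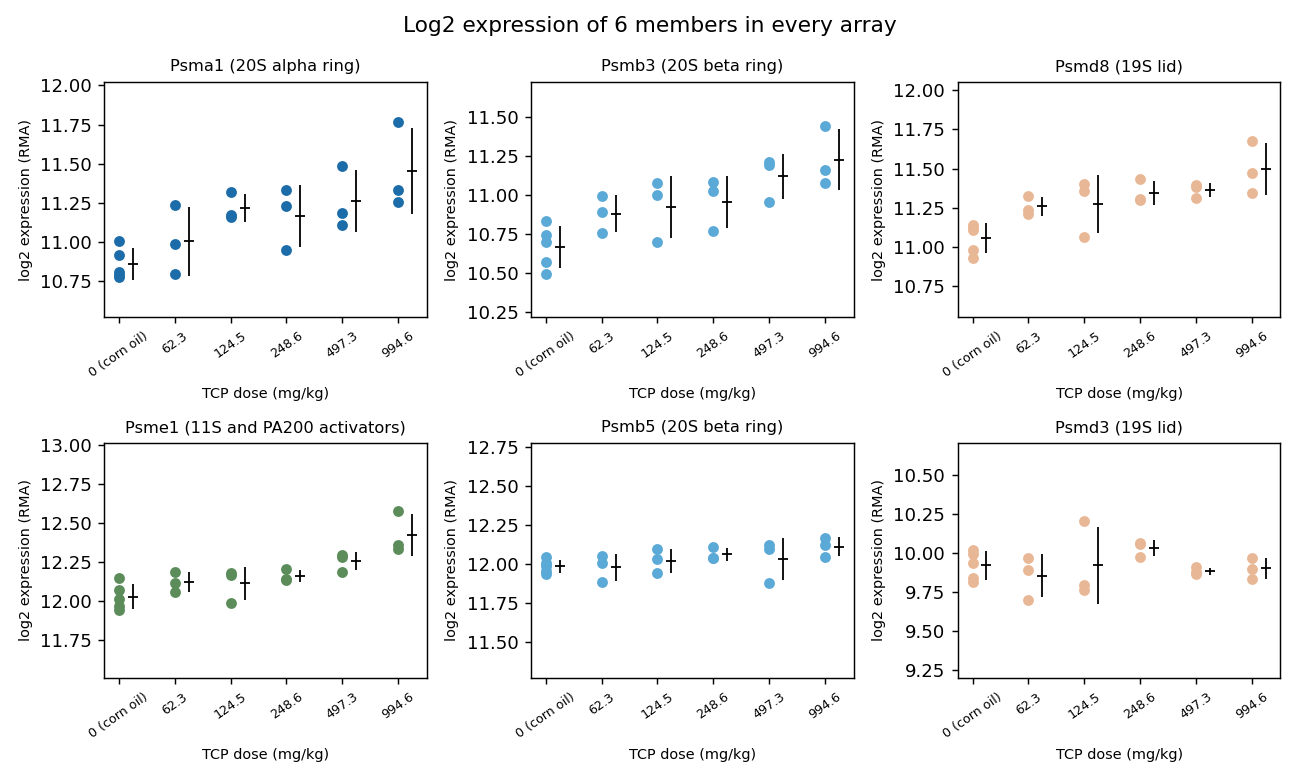
Log2 expression (y axis) of 6 members in every array, by TCP dose in mg/kg (x axis). Points are arrays, the cross bar is the group mean and the vertical line is 1 SD (n = 5 in control, n = 3 at each dose). Psma1, Psmb3, Psmd8 and Psme1 at 994.6 mg/kg lie above every control array, whereas Psmb5 and Psmd3 overlap the controls.

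At the lower doses no member was called by limma. The counts were 0 of 36 at 62.3, 124.5, 248.6 and 497.3 mg/kg, where 0%, 0.00703%, 0.0563% and 0.732% of all genes were called in either direction. Members with an unadjusted p under 0.05, all of them higher, numbered 1, 9, 13 and 12 in order of dose, and 22 at 994.6 mg/kg. The share of all genes higher at that level was 1.34%, 3.36%, 4.03%, 7.28% and 9.97%. The median change over the members was 0.06, 0.13, 0.17, 0.14 and 0.26 across the 5 doses, against 0.00, 0.01, 0.01, 0.01 and -0.01 over all genes. Members whose treated arrays all lay above the controls numbered 1, 8, 11 and 12 at the 4 lower doses, against 1.44%, 2.24%, 4.25% and 5.71% of all genes. All doses share the same 5 control arrays, so these counts are not independent of each other.

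Members differed in where along the doses they were highest. The group mean was highest at 994.6 mg/kg in 26 members, against 21.3% of all genes. It was highest at 248.6 mg/kg in 8 (Psmd1, Psmd2, Psmd3, Psmd5, Psmd9, Psmd11, Psmd13 and Psme4). In 1 member it was highest at 497.3 mg/kg (Psmb7) and in 1 at 124.5 mg/kg (Psmd12). The shares of all genes highest at these other doses are not given here. The peak was slight in Psmd2, which averaged 11.072 ± 0.046 at 248.6 mg/kg and 11.042 ± 0.0754 at 994.6 mg/kg (SD, n = 3 each). Of the core genes, 12 of 13 peaked at the highest dose. Without replicate 1 of 994.6 mg/kg only 14 members, 7 of them core genes, had their highest mean at that dose, against 19.8% of all genes. Psma1 averaged 10.86 ± 0.0998 in control and then 11.01 ± 0.221, 11.22 ± 0.0888, 11.17 ± 0.198, 11.26 ± 0.198 and 11.45 ± 0.275 from 62.3 to 994.6 mg/kg (SD, n = 5 and 3 each). These Psma1 means were higher at each step but 1, and neighbouring doses overlapped. At 248.6 mg/kg every member was above 0, but none of the changes passed the test.

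Psmb7 showed a different course. It measured 10.52, 10.44 and 10.44 at 497.3 mg/kg, against 9.95, 9.64, 9.87, 10.04 and 10.06 in control, a change of 0.55 ± 0.153 (limma adjusted p = 0.111). The 3 arrays at that dose lay above all controls and close together, and this was the largest change of any member at 497.3 mg/kg, followed by Psmb3 (0.45 ± 0.113, limma adjusted p = 0.0785) and Psma1 (0.40 ± 0.126, limma adjusted p = 0.168).

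**Figure D3:**
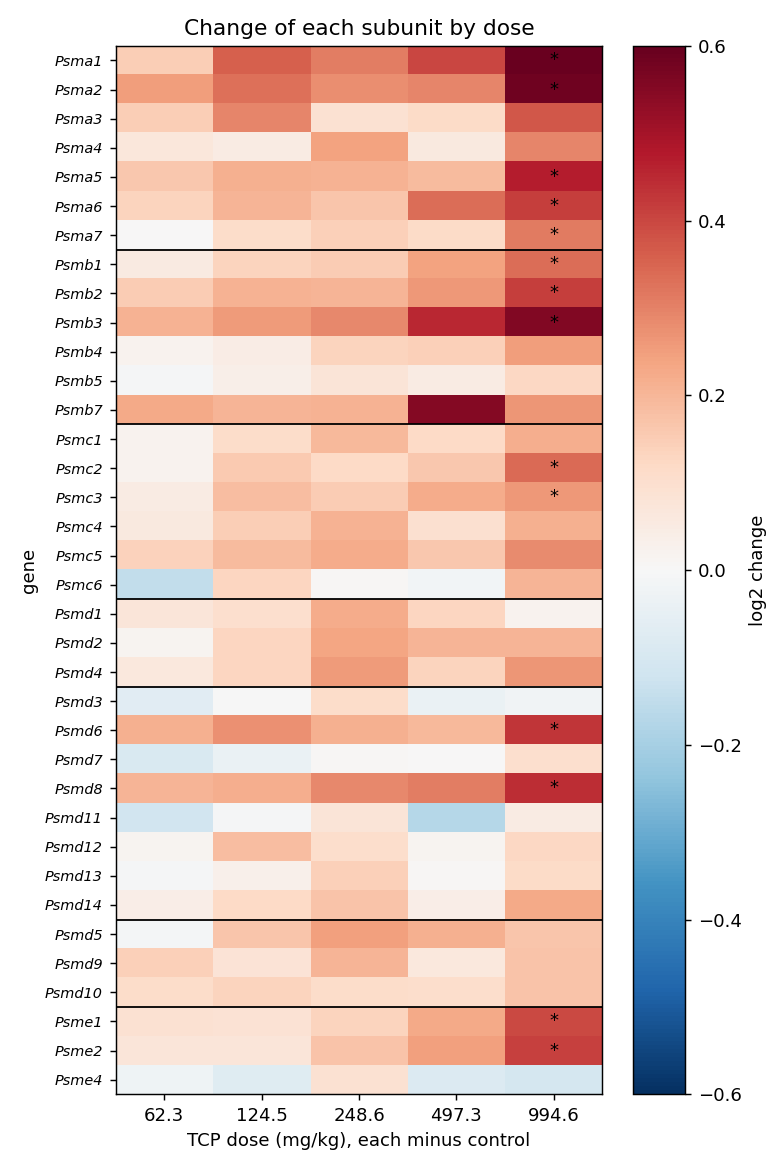
Log2 change of each member against control (colour, scale at the right) at the 5 TCP doses (x axis, mg/kg), with lines between the role groups. Stars mark an adjusted p under 0.05, which occur only at 994.6 mg/kg (14 of 36 members). Core genes are at the top, where the darkest cells lie.

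A trend over dose used all 20 arrays, with dose coded as a step of 0 in control to 5 at 994.6 mg/kg. It called 17 of 36 members, all with a rising slope (47.2%), against 3.9% of all genes rising and 6.47% in either direction. These were 9 core genes (Psma1, Psma2, Psma5, Psma6, Psma7, Psmb1, Psmb2, Psmb3 and Psmb4), 6 regulatory particle genes (Psmc1, Psmc2, Psmc3, Psmd2, Psmd4 and Psmd8) and the activators Psme1 and Psme2. The steepest slopes were 0.11 ± 0.0207 per step in Psma1 (limma adjusted p = 0.00296) and 0.10 ± 0.0181 in Psmb3 (limma adjusted p = 0.00137). Psmd8 rose by 0.08 ± 0.0147 per step (limma adjusted p = 0.00256) and Psme1 by 0.07 ± 0.0127 (limma adjusted p = 0.00244). Psmd6, called at the highest dose, missed the threshold here (limma adjusted p = 0.0584).

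The trend depended less on the deviating array than the comparison at the highest dose did. Without replicate 1 of 994.6 mg/kg it called 12 members, of which 11 were among the 17. The other was Psmb7 (0.10 per step, limma adjusted p = 0.0233). Without all 3 arrays of that dose the trend called 4. The share of all genes called in these reduced fits is not given here. Whether the lower counts are particular to the members therefore cannot be told. Among the 15 treated rats alone the trend called 0 of 36 by limma, where 0.218% of all genes were called. There 14 members rose at an unadjusted p under 0.05, against 5.13% of all genes. The slope was above 0 in 34 of 36 members in treated rats, against 48.6% of all genes.

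The comparison of the 2 highest doses and the test over all doses called none. At 994.6 against 497.3 mg/kg limma called 0 of 36 members (0.0211% of all genes), and 2 were higher at an unadjusted p under 0.05, against 3.11% of all genes. The moderated F test in limma over the 5 doses also called 0 of 36 (0.816% of all genes), and 18 members had an unadjusted p under 0.05, against 10.2% of all genes.

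At the highest doses core genes lay further above control than regulatory particle genes did. Each array's mean deviation from the control mean, averaged over the 13 core genes, was 0.57, 0.28 and 0.31 at 994.6 mg/kg, against -0.06 to 0.06 in control. Over the 17 regulatory particle genes it was 0.33, 0.16 and 0.13 at 994.6 mg/kg, against -0.06 to 0.03 in control. The core therefore exceeded the regulatory particle by 0.24, 0.12 and 0.18 in the 3 arrays, and all 3 lay above the control range of -0.05 to 0.04.

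The same difference was smaller at the lower doses. It averaged 0.09 ± 0.0383, 0.07 ± 0.118, 0.03 ± 0.0306, 0.15 ± 0.0575 and 0.18 ± 0.0584 from 62.3 to 994.6 mg/kg, against 0.00 ± 0.0428 in control (SD, n = 3 each and n = 5). At 124.5 mg/kg replicate 2 lay at -0.07, below every control, and at 248.6 mg/kg the arrays overlapped the controls. All 3 arrays at 62.3 mg/kg and all 6 at 497.3 and 994.6 mg/kg lay above all controls. Without replicate 1 of 994.6 mg/kg the difference at that dose was 0.15. With the GAPDH measure of RNA integrity as a covariate it was 0.0453, 0.0668, -0.0128, 0.0906 and 0.105 from 62.3 to 994.6 mg/kg, so it was over 1.5 times smaller at the highest dose and turned sign at 248.6 mg/kg. This difference carries no p, because the genes were grouped with results of these data known, and the difference in called counts between core and regulatory particle was not tested.

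**Figure D4:**
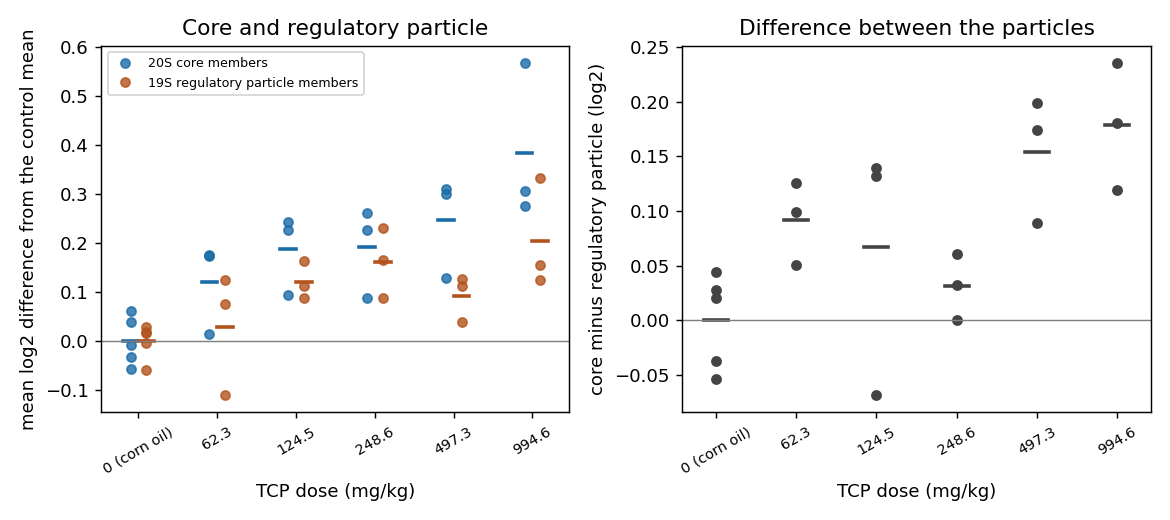
Left, mean log2 difference from the control mean over the 13 core genes and the 17 regulatory particle genes, per array (points) and group (bars), by TCP dose in mg/kg. Right, core minus regulatory particle per array: the 3 arrays at 62.3 mg/kg and all 6 at 497.3 and 994.6 mg/kg lie above the controls, and 1 array at 124.5 mg/kg lies below them.

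Genes that work beside the proteasome moved in part. Of the 5 chaperones that build the core, 2 were called higher at 994.6 mg/kg and all were above 0 (median 0.33). Psmg4 ranged over 10.78 to 10.95 at 994.6 mg/kg, against 10.33 to 10.63 in control (0.41 ± 0.0932, limma adjusted p = 0.0168). It was also called at 497.3 mg/kg (0.50 ± 0.0932, limma adjusted p = 0.0146). Psmg3 rose by 0.33 ± 0.0897 (limma adjusted p = 0.0427). Without replicate 1 of 994.6 mg/kg the limma adjusted p was 0.0501 for Psmg4 and 0.257 for Psmg3.

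Nfe2l1, which encodes NRF1, was the 1 called gene among 11 of the pathway that processes and partners this factor (list median 0.05). It ranged over 9.07 to 9.45 at 994.6 mg/kg, against 8.69 to 9.01 in control (0.45 ± 0.098, limma adjusted p = 0.012). Unlike the members, it kept its call without replicate 1 (0.57, limma adjusted p = 0.00561), but not with the GAPDH measure of RNA integrity as a covariate (limma adjusted p = 0.0528), and its slope over dose was 0.09 ± 0.0165 per step (limma adjusted p = 0.00229). Of 14 proteasome-associated genes 1 was called, the shuttle factor gene Ubqln2 (0.40 ± 0.111, limma adjusted p = 0.047). Of 13 genes for ubiquitin and p97, the ATPase that extracts ubiquitinated proteins, 2 were called, the p97 cofactors Ubxn4 (0.35 ± 0.0966, limma adjusted p = 0.0465) and Nsfl1c (0.31 ± 0.0738, limma adjusted p = 0.0202). Without replicate 1 these 3 calls were lost, with limma adjusted p = 0.276, 0.321 and 0.162.

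Complexes of related build served as a comparison. In the COP9 signalosome, whose subunits resemble those of the lid, limma called 0 of 10 genes, the median was 0.00 and the largest change was Cops5 (0.28 ± 0.0832, limma adjusted p = 0.0628). In the CCT chaperonin, another ringed ATPase complex, limma called 0 of 8, the median was 0.15 and the largest change was Cct8 (0.34 ± 0.123, limma adjusted p = 0.122). The CCT mean deviation was 0.387 in replicate 1 of 994.6 mg/kg. In replicates 2 and 3 it was 0.0631 and 0.0298, within the control range of -0.0988 to 0.0946. Of 11 targets of NRF2 outside the proteasome, 8 were above 0, the median was 0.351, and limma called 1 higher and 1 lower. The higher one was Nqo1, a quinone reductase, by 1.21 ± 0.217 (limma adjusted p = 0.00347). The lower one was Gclc, of glutathione synthesis, by -0.73 ± 0.164 (limma adjusted p = 0.0142). The list's mean deviation was 0.64, 0.272 and 0.257 in the 994.6 mg/kg arrays, against -0.165 to 0.108 in control. Its dose trend called 3 genes rising and 1 falling. Without replicate 1 of 994.6 mg/kg Nqo1 kept its call (0.88, limma adjusted p = 0.0293) and Gclc lost it (limma adjusted p = 0.131).

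The immunoproteasome genes, which replace the proteolytic subunits in cells exposed to interferon, were not called at 994.6 mg/kg (0 of 3, median 0.40). Psmb9 ranged over 9.65 to 10.77 at 994.6 mg/kg, against 8.73 to 9.46 in control (0.79 ± 0.254, limma adjusted p = 0.0809), and its slope over dose passed (0.15 ± 0.0448, limma adjusted p = 0.0456). Psme1 and Psme2 are known to respond to interferon as well. Of 18 interferon response genes 9 were called higher (median 0.82), with Usp18 at 1.64 ± 0.289, Mx1 at 1.46 ± 0.315 and Oas1a at 1.39 ± 0.338 (limma adjusted p = 0.00323, 0.0115 and 0.0237). Without replicate 1 of the dose Usp18 kept its call (limma adjusted p = 0.0207), while Mx1 and Oas1a lost it (0.0687 and 0.16). The list's mean deviation per array was 0.71 to 0.87 at 994.6 mg/kg, against -0.36 to 0.43 in control. The part of this response in the proteasome changes was not tested.

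Markers of the tissue's cells gave the setting. Hepatocyte markers, a check of the labelled tissue, were present at a mean log2 level of 13.81 to 13.85 at 994.6 mg/kg, against 13.81 to 13.95 in control, and limma called 0 of 9. Red cell markers moved with the dose: 4 of 5 were called lower at 994.6 mg/kg, with a mean level of 7.58 to 8.58 at that dose, against 9.25 to 9.38 in control. Their mean deviation was -1.71 in replicate 1 and -0.72 and -0.79 in the others, so the array with the highest proteasome values had the lowest red cell values. Limma called 0 of 6 Kupffer cell, 0 of 5 endothelial, 0 of 7 stellate, 0 of 6 T and B cell and 0 of 3 neutrophil markers at 994.6 mg/kg, and 1 of 4 cholangiocyte markers (Epcam, 0.69 higher). The dose trend, which gave the 17 member calls, also called 4 of 5 red cell markers, 2 of 7 stellate markers (Reln and Pdgfrb) and 1 of 9 hepatocyte markers (Cps1) with a falling slope, and all 7 stellate slopes were below 0. The part of these shifts in the proteasome changes was not tested.

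A measure of RNA integrity also moved with treatment. The array carries control probes near either end of the GAPDH transcript, and the 3' minus the 5' log2 value, which grows as RNA degrades, was 0.72 ± 0.112 at 994.6 mg/kg, against 1.37 ± 0.183 in control (SD, n = 3 and n = 5). In 14 of 15 treated arrays it was below all controls, and replicate 2 of 124.5 mg/kg was the exception at 2.58. With this difference as a covariate limma called 4 members at 994.6 mg/kg, all among the 14: Psma5 (adjusted p = 0.0335), Psmc2 (0.0351), Psmd8 (0.0479) and Psme1 (0.0176). The median change in that fit was 0.25, and the trend called 13 members, of which 12 were among the 17. When replicate 2 of 124.5 mg/kg was left out as well, both counts were 0, with medians of 0.21 at 994.6 mg/kg and 0.04 per step. Without that array the control and treated groups did not overlap in this difference, so dose and RNA integrity cannot be told apart there. The share of all genes called in these covariate fits is not given here, so the lower counts are not particular to the members.

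**Figure D5:**
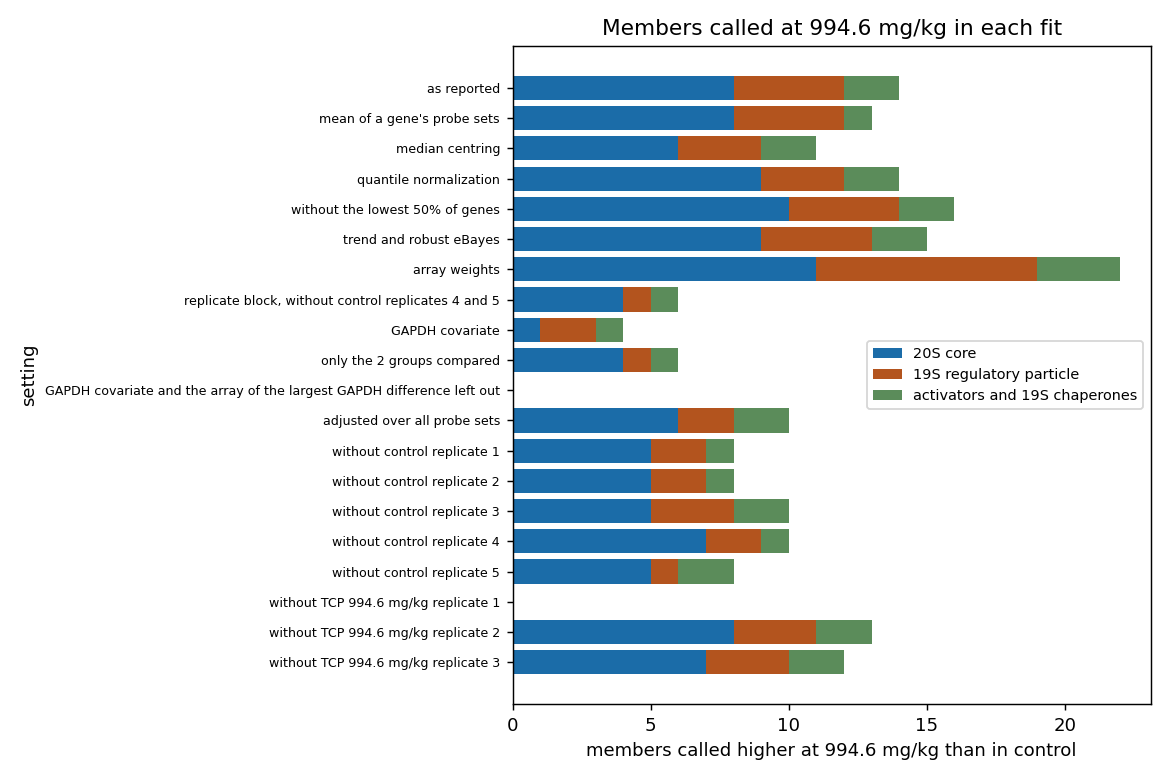
Number of members called higher at 994.6 mg/kg than in control (x axis) in the reported fit and in each other fit (y axis), split into core, regulatory particle and the remaining members. The count is 14 as reported, 0 without replicate 1 of the dose, 4 with the GAPDH covariate and 22 with array weights.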

How the data were processed

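The authors' deposited values are on a log2 scale, and the submitters' processing notes name RMA without a version. RMA subtracts background, equalises the distribution of the arrays and summarises each probe set, so each change is read against most other genes (array medians 6.31 to 6.41). The number of arrays limits the precision. The sources do not state the set of arrays that RMA took together. Of 31099 probe sets, 57 were controls, 20826 carried 1 gene symbol, 436 carried several and 9780 had none in the table given. Older symbols were replaced by way of gene identifiers, and each gene was read from its probe set with the highest mean, which left 14217 genes with no filter on low values.

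limma 3.58.1 in R 4.3.3 fitted 1 mean per group to all 20 arrays (14 residual and 4.77 prior degrees of freedom), and the script was tested on simulated data. Groups were taken from the labels, in which each array is a rat of its own. Each dose was compared with control, the 2 highest doses with each other, all doses by an F test, and dose step by a slope. Every p across genes is limma's, with Benjamini-Hochberg adjustment over 14217 genes.

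The members and the other gene lists were chosen with earlier results of these data known. Named with values in every array were up to 3 called members per role with the largest change, or the 1 largest where none was called, and members below 0. Psmb5 and Psmb7 were added for their proteolytic sites after their values were seen. Other lists gave up to 3 called genes or the 1 largest. Alternatives covered probe set choice, normalization, filtering, eBayes options, array weights, a replicate block, the GAPDH covariate, dose scale, groups in the fit and left-out arrays. The covariate fit with 1 array left out, the fit over all probe sets the trend without the 994.6 mg/kg group, the refits of core minus regulatory particle and the count of peaks without 1 array were added after seeing the data. Promoters are RefSeq's on GRCr8.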

Additional observations from a re-analysis of the deposited data

Results flagged for a closer look

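Of the 36 members tested for a control array far from the other controls, 1 was found. Psmd12, a lid subunit, measured 9.435 in control replicate 5, while the other 4 control arrays lay between 9.711 and 9.816. The gap to the nearest array was 0.725 of the whole control range. Chance gives such a gap in about 1 of 20 groups, so 1 among 36 is no pattern. Psmd12 was not called in any comparison.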

How the results depend on the processing

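Counts in this section are given without the share of all genes called in the same fit, except for array weights at 994.6 mg/kg. They therefore do not set the members apart from other genes. The count of members called at 994.6 mg/kg (14) moved with several choices. It was 22 with array weights (20% of all genes called), 6 when only the 2 groups were fitted, 4 with the GAPDH covariate and 0 with that covariate and replicate 2 of 124.5 mg/kg left out. It was 10 to 16 with other probe set choices, normalizations, filters and eBayes options, and ranged from 0 to 13 when 1 array was left out. For the 14 called members, 174 values under the alternatives kept their call, 92 lost it and 0 turned sign. Psmd3, not called, was 0.0383 with array weights, 0.135 with the covariate, 0.152 with the covariate and the left-out array, and ranged from -0.0522 to 0.013 with 1 array left out. At 497.3 mg/kg the count of 0 became 4 with array weights and 2 with only the 2 groups. The F test's 0 became 1 with quantile normalization, 1 with the eBayes trend and robust options and 9 with array weights, and ranged from 0 to 1 with 1 array left out. The trend's 17 became 0 with the covariate and the left-out array and 4 without the 994.6 mg/kg group, and ranged from 12 to 19 with 1 array left out. The 0 of the trend in treated rats became 1 with dose in mg/kg. With the covariate, core minus regulatory particle was 0.0453 at 62.3, -0.0128 at 248.6, 0.0906 at 497.3 and 0.105 at 994.6 mg/kg, and 0.0968 at 994.6 mg/kg with that array left out as well. It kept its direction and moved by less than 1 SD with the other probe set choice, normalizations, array weights, the replicate block and each left-out array.

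Replicate numbers are shared between groups, but nothing in the labels pairs the rats. Deviations of same-numbered arrays correlated at -0.382 to 0.366 (45 pairs, 16 over 0.1, median 0.0298). Those of differently numbered arrays correlated at -0.336 to 0.345 (120 pairs, 29 over 0.1, median -0.0294). Of 18 arrays, 12 correlated best with their own number, and the source of this was not tested. With the replicate number as a block, without control replicates 4 and 5, 6 members were called at 994.6 mg/kg and 12 in the trend.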
